A study of Mus musculus with 10 samples.

Results

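Ripk2, Map3k7 and Otulin are 3 genes of the NOD2 and NF-kB signalling route, taken by name from the 55416 rows of 2 deposited count tables of mouse colon RNA. NOD2 is an intracellular sensor of bacterial cell wall peptides, and its loss of function is known for raising the risk of Crohn's disease. Once NOD2 is engaged, the kinase RIPK2 (gene Ripk2) binds it and is tagged with ubiquitin chains of several kinds. Lysine-linked chains gather the kinase TAK1 (gene Map3k7) through its TAB partner proteins, and linear chains hold the IKK complex, which TAK1 switches on to release the transcription factor NF-kB. The protease OTULIN (gene Otulin) cuts linear chains and so restrains the signal. In the gut these proteins are known both for defence against bacteria and for keeping epithelial cells alive.

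All mice drank 2% dextran sulfate sodium (DSS), a polymer that injures the colonic epithelium, for 7 days, and there was no group without DSS. The comparison was between 5 colon libraries labelled as lacking Vista, an immune checkpoint protein encoded by Vsir, and 5 wild-type (WT) colon libraries. The Vista libraries are called knockout (KO) here: the labels of KO 1 to 3 give the genotype as VISTA knockdown, and those of KO 4 and 5 as Vista-/-. The sources used here do not give strain, age or sex, nor how the allele was made. The first table held KO 1 to 3 and WT 1 to 3, and the second held KO 4 and 5 and WT 4 and 5. Library numbers are only names. No label states that each library is a separate animal, and the p-values speak only for the spread seen among the libraries.

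Library totals ran from 3691322 to 4071238 counts. In most of the genome the counts did not follow the gene names: Actb, the beta-actin gene, had 75 counts over all libraries. Of 495 housekeeping genes (ribosomal, respiratory chain, proteasome and similar families) 119 (24.0%) reached 500 counts outside 2 windows, on mm10 chromosome 4 up to 59.9 Mb and on chromosome 15 from 10.4 to 38.1 Mb. Inside them 14 of 14 did, but the windows had been chosen on genes of this kind. All 3 genes lie in these windows, and gene names are used only there. The Vsir row, on chromosome 10, held 27 to 97 counts in KO and 0 to 82 in WT libraries. It lies outside the windows and does not check the genotype labels. On the first principal component, with 37.7% of the variance, WT 4 and WT 5 stood apart at 44.2 and 48.2, with the other libraries between -25.8 and 6.2. Cdh17, an intestinal epithelial cadherin gene that lies in the windows, was at 3087 to 3823 CPM, the gene's counts divided by the library's total and scaled to a common size.

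Ripk2 (ENSMUSG00000041135) lies at chr4:16122733-16163647 on the minus strand of mm10, Map3k7 (ENSMUSG00000028284) at chr4:31964097-32023467 on the plus strand, and Otulin (ENSMUSG00000046034) at chr15:27542635-27630693 on the minus strand. The promoter of Map3k7 carries a match to the NF-kB consensus, the binding motif of NF-kB dimers, and that of Otulin carries none. For Ripk2 no RefSeq promoter was available here, so its promoter was neither searched nor shown. The bases before the annotated start are shown so that the match can be seen in its place and the promoters set side by side (RefSeq, build GRCm38.p6), 240 bases at chr4:31963857-31964096 and 250 bases at chr15:27630694-27630943. Each reads along its gene, with the match in capitals.
Map3k7: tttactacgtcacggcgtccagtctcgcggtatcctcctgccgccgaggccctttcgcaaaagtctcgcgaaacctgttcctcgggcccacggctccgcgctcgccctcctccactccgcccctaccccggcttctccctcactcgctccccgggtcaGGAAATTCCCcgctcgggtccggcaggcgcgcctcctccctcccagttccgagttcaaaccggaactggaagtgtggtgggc
Otulin: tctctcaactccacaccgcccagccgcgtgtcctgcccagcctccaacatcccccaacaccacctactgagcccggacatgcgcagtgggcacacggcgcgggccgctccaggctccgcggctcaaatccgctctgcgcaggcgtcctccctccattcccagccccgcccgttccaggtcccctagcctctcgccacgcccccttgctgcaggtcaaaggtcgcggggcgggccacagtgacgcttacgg

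The 10-base NF-kB consensus was searched on both strands of the RefSeq promoters, each of 300 bases, 250 before and 50 after the start, and no other motif was searched. Of 27025 genes with a promoter there, 1388 (5.14%) held a match. Of 37 genes with a promoter in a list of 47 genes of the NOD2 and NF-kB pathway, 8 (21.6%) did, and of 12 in a list of 16 known NF-kB target genes, 5 (41.7%) did, namely Il6, Cxcl1, Cxcl2, Cxcl10 and Ccl20. Both lists were assembled by hand from textbook knowledge, and the pathway list includes genes known as NF-kB targets. The 8 matches of the pathway list are shown to set the Map3k7 match beside those of the route's inhibitors and subunits, each with 10 bases on either side, turned so that the capitals read along the consensus.
Map3k7 (chr4:31964005-31964034, minus strand): gacccgagcgGGGAATTTCCtgacccgggg
Nfkbia (chr12:55492657-55492686, plus strand): gtcaggcgcgGGGAATTTCCaagccagtca
Cyld (chr8:88696863-88696892, minus strand): gctggctgaaGGGACTTTCCgctcggtcaa
Nfkb2 (chr19:46304688-46304717, plus strand): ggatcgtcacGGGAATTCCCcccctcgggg
Rel (chr11:23771042-23771071, minus strand): cgtaagcagcGGGAAATCCCcccccctccc
Bcl3 (chr7:19822734-19822763, plus strand): gccgggcagcGGGACTTCCCctgccgccga
Nfkbie (chr17:45555584-45555613, plus strand): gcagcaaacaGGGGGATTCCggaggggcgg
Tnfaip3 (chr10:19015516-19015545, minus strand): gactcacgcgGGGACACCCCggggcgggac
The 10 bases of the match in Map3k7 were identical to those in Nfkbia, the gene of the inhibitor IkB-alpha. Cyld, which like Otulin encodes a protease that cuts linear chains, and Nfkb2, an NF-kB subunit gene, each shared 9 of the 10 with Map3k7. Tnfaip3 shared 6 of the 10. All 8 were found by the same consensus, so part of this agreement was set by the search, and it shows no special likeness. A match is a description of letters and not evidence of binding.

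The comparison of KO with WT asked whether colon transcripts differ in DSS colitis without Vista. None of the 3 genes passed the test in the comparison of all 10 libraries, in either table alone, or for a difference between the tables. Ripk2 had a mean of 108 ± 24.3 CPM in KO and 92.5 ± 8.49 in WT, Map3k7 269 ± 25.4 and 259 ± 5.4, and Otulin 91.8 ± 18.6 and 85.7 ± 15.0 (SD, n = 5 each). The ranges of KO and WT overlapped for all 3. In that comparison 548 of 9736 rows (5.63%) were called by edgeR's quasi-likelihood test at an adjusted p under 0.05, with the table as a covariate, and 7.22% of rows had ranges that did not overlap. All 3 genes passed the filter on low counts in each comparison. The unadjusted p was under 0.05 for 0 of the 3 with edgeR, with DESeq2 and with voom alike, where 23.3%, 20.9% and 23.5% of all rows were under it. The median log2 fold change of the 3 was 0.14, and that of all rows tested was 0.019. Of 334 rows tested inside the windows, edgeR called 28, of which 5 were higher and 23 lower in KO. The median log2 fold change of those 334 rows was -0.019.

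**Figure D1:**
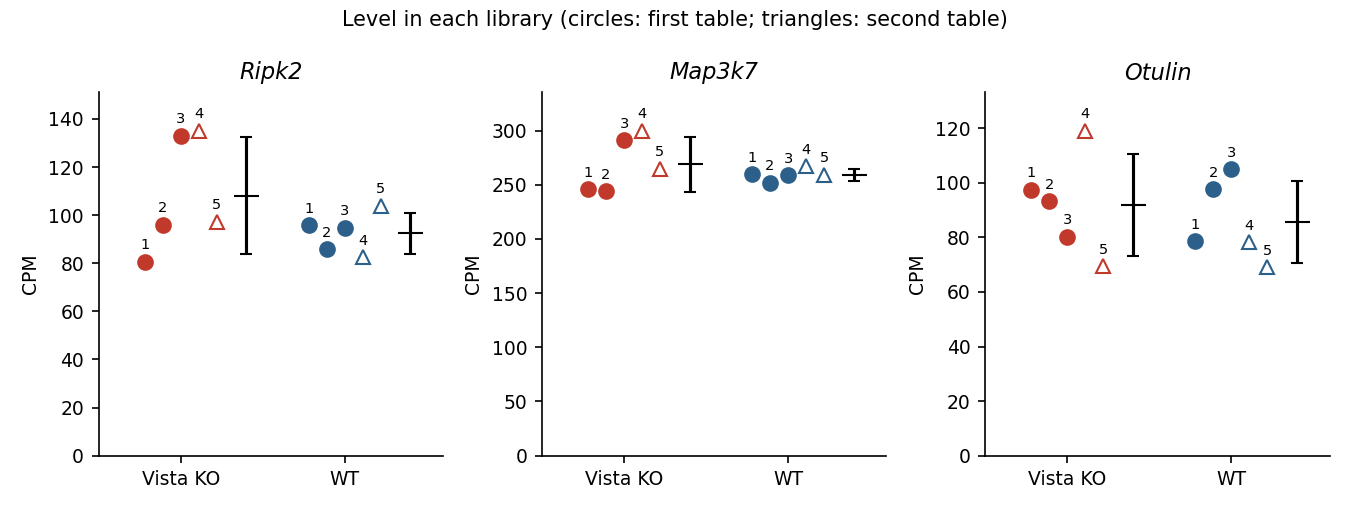
CPM of Ripk2, Map3k7 and Otulin in each library, KO in red and WT in blue, numbered by library, with circles for the first table and triangles for the second. Black bars give the mean and SD of 5 libraries. Ripk2 is highest in KO 3 and KO 4, Map3k7 in WT stays between 252 and 267 CPM, and the genotypes overlap in each panel.

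Ripk2, the kinase that carries the signal from NOD2, stood at 80.7, 96.0, 133, 135 and 97.3 CPM in KO libraries 1 to 5. In WT libraries 1 to 5 it stood at 95.8, 85.8, 94.7, 82.5 and 104 CPM. KO 3 and KO 4 lay above every WT library, KO 1 lay below every one, and KO 2 and KO 5 lay among them. The log2 fold change of KO over WT was 0.25 ± 0.14 (SE), a ratio of 1.19 with a 95% interval from 0.964 to 1.47, and the adjusted p was 0.299 by edgeR. The interval therefore still held no difference, as well as a rise of up to 1.47-fold. The tables gave 0.19 (first, adjusted p = 0.459 by edgeR) and 0.32 (second, 0.606), and their difference had an adjusted p of 0.883. As single libraries were left out, the first ran from 0.01 (without KO 3) to 0.35 (without KO 1) and the second from 0.07 (without KO 4) to 0.53 (without KO 5). An exact two-sided permutation test of mean log2 CPM over all 252 splits of 5 against 5 gave p = 0.262. Unlike edgeR's test, the permutation tests over 10 libraries, here and below, took no account of the table. In the first table alone the exact p was 0.7, where 3 against 3 cannot go below 0.1. Without KO 3 the log2 fold change was 0.16, and without KO 4 it was 0.15.

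Map3k7 encodes TAK1, a kinase at which signals from NOD2, Toll-like, interleukin-1 and TNF receptors meet. It stood at 246, 244, 291, 299.7 and 265 CPM in KO libraries 1 to 5 and at 259.8, 252, 259, 267 and 259.5 in WT libraries 1 to 5. The WT libraries lay close together, while the KO libraries reached beyond them on both sides, 2 below and 2 above. The log2 fold change was 0.08 ± 0.07 (SE), a ratio of 1.06 with a 95% interval from 0.946 to 1.18, and the adjusted p was 0.536 by edgeR. Map3k7 thus had the narrowest interval of the 3 genes. The tables gave 0.05 (adjusted p = 0.754 by edgeR) and 0.10 (0.838), with 0.913 for their difference. With 1 library left out the first fell as low as 0.0013 (without KO 3), and the second ran from 0.02 (without KO 4) to 0.18 (without KO 5). The exact permutation test gave p = 0.452 over 10 libraries.

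Otulin, the linear-chain protease, stood at 97.4, 93.3, 80.2, 119 and 69.5 CPM in KO libraries 1 to 5. WT libraries 1 to 5 had 78.5, 97.7, 105, 78.2 and 69.1 CPM. KO 4 alone lay above all WT libraries, and 2 of 5 KO libraries lay above the WT mean of their own table. The log2 fold change was 0.14 ± 0.15 (SE), a ratio of 1.10 with a 95% interval from 0.873 to 1.39, and the adjusted p was 0.613 by edgeR. The sign was not stable. The first table gave -0.01 (adjusted p = 0.967 by edgeR) and the second 0.36 (0.655), and in the comparison of all libraries it turned to -0.04 without KO 4. The difference between the tables had an adjusted p of 0.632, and the exact permutation test over 10 libraries gave p = 0.595.

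The spread between libraries differed among the 3 genes. Counting error alone, with 255 to 1214 counts per gene and library, would give an SD of 3.07% to 5.54% of the mean. In WT libraries Map3k7 had an SD of 2.08% of its mean, 0.652 times what counting error gives, so its WT values agree within counting noise. Ripk2 in WT had 9.18% and Otulin 17.5%. In KO libraries the SD was 9.43% for Map3k7, 22.4% for Ripk2 and 20.3% for Otulin, or 3.07, 4.62 and 3.87 times counting error. Whether the KO and WT spreads differ was not tested. Over all 10 libraries the SD of Map3k7 was 6.83% of its mean, the 21st lowest of 283 protein-coding genes tested in the windows, whose median was 15.7%. Ripk2 at 19.0% was 173rd and Otulin at 18.3% was 166th. This order also reflects depth, since genes with more counts have less counting error.

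**Figure D2:**
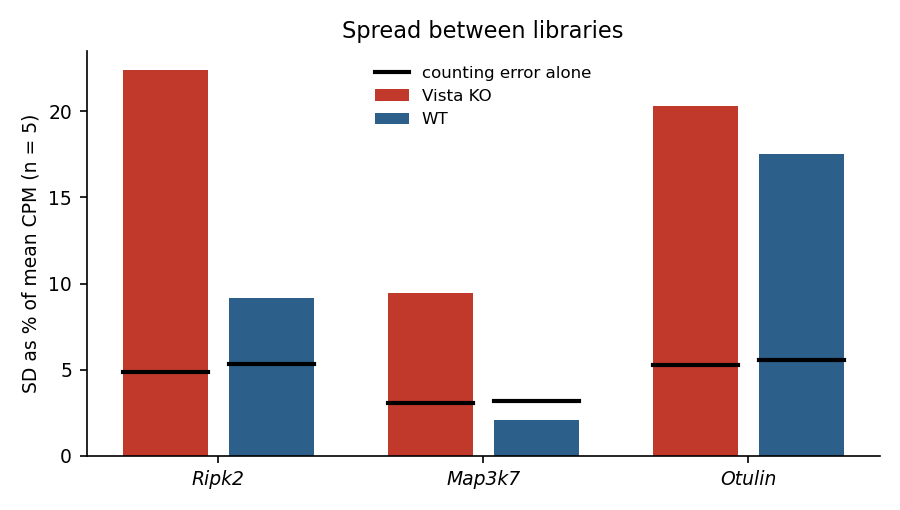
SD of CPM as a percentage of the mean over the 5 libraries of each genotype, for Ripk2, Map3k7 and Otulin, with KO in red and WT in blue. Black lines mark what counting error alone would give. The Map3k7 bar of WT, at 2.08%, is the only one under its line.

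Levels of different genes were compared per kilobase (kb) of exon, from the union of exons in GENCODE M21, 2816 bases for Ripk2, 6423 for Map3k7 and 1693 for Otulin. Otulin had the highest level at 52.4 ± 9.62 CPM per kb, then Map3k7 at 41.2 ± 2.81 and Ripk2 at 35.7 ± 6.78 (SD, n = 10). Otulin was above Map3k7 in 9 of 10 libraries, all but KO 5, and Map3k7 above Ripk2 in 8 of 10, all but KO 3 and KO 4. Otulin was above Ripk2 in 10 of 10. The ranges of neighbours in this order overlapped, at 40.8 to 70.1 for Otulin, 38.1 to 46.7 for Map3k7 and 28.7 to 48.0 CPM per kb for Ripk2. The union holds exons of every annotated isoform, so a gene with long isoforms that the colon does not use reads too low. The annotation used for counting is not given. The exons counted may therefore differ from those of GENCODE M21, and the order could change with them. In GENCODE M21 none of the 3 shares an exon base with another gene.

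Ratios of counts between the genes do not depend on how libraries are scaled. The ratio of Ripk2 to Map3k7 was 0.399 ± 0.0551 in KO and 0.357 ± 0.0342 in WT (SD, n = 5 each; exact permutation p = 0.19). It ran from 0.328 to 0.456 in KO and from 0.309 to 0.40 in WT. The ratio of Ripk2 to Otulin was 1.21 ± 0.323 and 1.11 ± 0.258 (n = 5 each, exact permutation p = 0.619), and that of Map3k7 to Otulin was 3.02 ± 0.645 and 3.11 ± 0.559 (exact permutation p = 0.913). The genotypes overlapped in all 3 ratios.

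Ripk2 and Map3k7 were both highest in KO 3 and KO 4. After the mean of each table was subtracted, Pearson's r of their log2 CPM over the 10 libraries was 0.86, while Spearman's rho was 0.33. Without KO 3 and KO 4, the libraries farthest from the median of Ripk2, r was 0.08, so the relation rests on those libraries. For Ripk2 and Otulin r was 0.21 (rho -0.10), and for Map3k7 and Otulin 0.29 (rho 0.26). These 3 correlations are descriptions over libraries of 2 genotypes, and no p is given.

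Among 282 other protein-coding genes tested in the windows, the 3 whose pattern over the 10 libraries was most like that of Ripk2 were Melk (r = 0.92), Tgs1 (0.90) and Ccne2 (0.89). Melk encodes a kinase found at high levels in dividing cells, and Ccne2 encodes cyclin E2, which drives entry into DNA synthesis. Tgs1 encodes an enzyme that methylates the cap of small nuclear RNAs. Melk stood at 173 CPM in KO 3 and 210.3 in KO 4, and at 92.8 to 128 in the other 8 libraries. The part of dividing cells in the high Ripk2 values of these libraries was not tested. For Map3k7 the 3 were Dcaf10 (0.87), a ubiquitin ligase adaptor gene, Ripk2 (0.86) and Melk (0.85). For Otulin they were the ribosomal protein gene Rps20 (0.91), the translocon gene Sec61b (0.88) and Anp32b (0.86), which encodes a histone chaperone. None of these genes passed the test between genotypes, with adjusted p values of 0.156 for Melk to 0.656 for Sec61b by edgeR. Without the 2 libraries farthest from the median of the gene, r was 0.54, 0.69 and 0.88 for Ripk2 with Melk, Tgs1 and Ccne2. It was 0.53, 0.08 and -0.38 for Map3k7 with Dcaf10, Ripk2 and Melk, so that the last 2 rest on KO 3 and KO 4, and their Spearman's rho was 0.33 and 0.27. For Otulin it was 0.72 to 0.85 without KO 4 and WT 5. They were picked as the highest of 282, which favours high values.

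Otulin lies between Ank, on the opposite strand, and Otulinl, its paralogue on the same strand. Ank (ENSMUSG00000022265, chr15:27466677-27594909), a pyrophosphate transporter gene, fell, and its span overlaps that of Otulin by 52275 bases. No exon base is shared in GENCODE M21. The overlap comes from the transcript Otulin-202, whose last exon, of 202 bases, lies inside an intron of Ank, and the span of the 7-exon transcript Otulin-201 stays 11009 bases clear of Ank. By that annotation exonic reads of the genes can be told apart without strand, while intronic reads of Ank that reach that exon would count for Otulin.

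**Figure D3:**
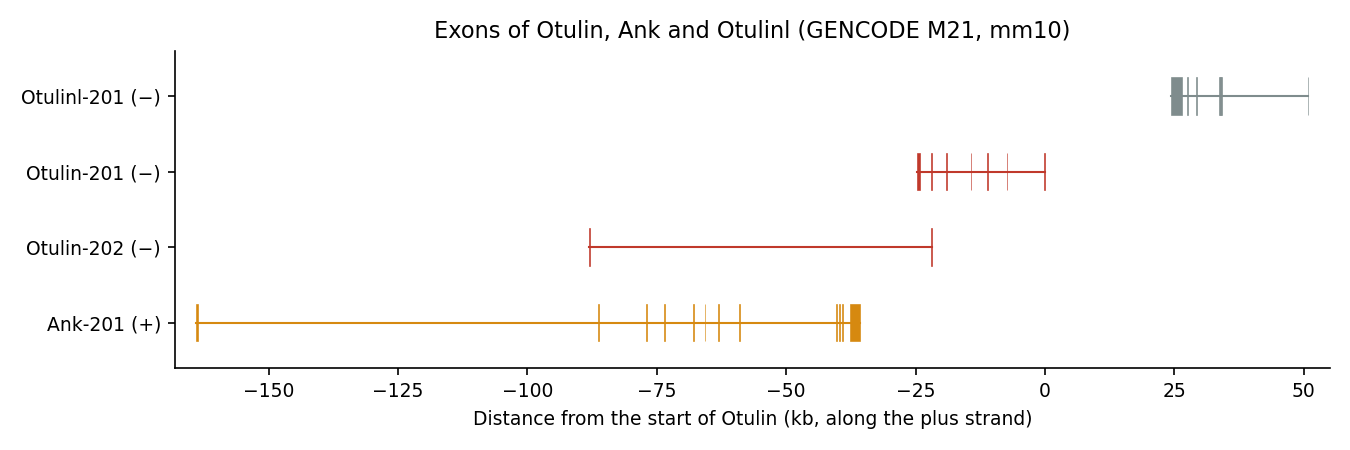
Exons (boxes) and introns (lines) of Ank-201, Otulin-202, Otulin-201 and Otulinl-201 by distance in kb from the start of Otulin along the plus strand, with each strand in brackets. Only the 2-exon transcript Otulin-202 reaches into the span of Ank, and its far exon falls between Ank exons.

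Ank stood at 125, 83.3, 127, 108 and 161 CPM in KO libraries 1 to 5 and at 173, 238, 192, 308 and 322 in WT libraries 1 to 5. Every KO library was below every WT library, and 7.22% of all rows had ranges that did not overlap, in either direction. The log2 fold change was -0.97 ± 0.15 (SE; adjusted p = 0.00642 by edgeR). The first table gave -0.81 (0.0184) and the second gave -1.22 (0.0826), which passed with DESeq2 (-1.23, 0.000765). Without WT 4, WT 5 and the covariate it was -0.72 with an adjusted p of 0.0679, and in the first table it lost the call without WT 2 (-0.69, 0.0691). The fall of Ank was known before it was chosen as a neighbour here. In the same libraries Otulin gave 0.14, and its 95% interval, from -0.20 to 0.48 on the log2 scale, did not reach the change of Ank. Only 202 of the 1693 exon bases of Otulin lie inside the span of Ank, so that comparison cannot show whether Ank reads counted for Otulin. Whether they did was not tested.

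Otulinl (ENSMUSG00000056069, chr15:27655069-27681579) encodes a relative of OTULIN known to lack its protease activity, and starts its gene span 24375 bases beyond that of Otulin. It stood at 51.2, 42.2, 56.4, 60.0 and 43.0 CPM in KO libraries 1 to 5 and at 39.5, 44.4, 45.5, 18.8 and 23.0 in WT libraries 1 to 5. The low values were those of WT 4 and WT 5, while WT 1 to 3 overlapped the KO libraries. The log2 fold change was 0.65 ± 0.20 (SE), which did not pass (adjusted p = 0.0776 by edgeR). The first table gave 0.24 and the second 1.30, and the difference between the tables, 1.06, had an adjusted p of 0.0596 by edgeR. That difference passed with DESeq2 (1.06, 0.0296), with no filter (0.99, 0.0286) and without KO 5 (1.28, 0.0107), and the second table's change passed with DESeq2 (1.31, 0.0122). Over all libraries Otulinl passed with DESeq2 (0.65, adjusted p = 0.0275), and with no filter on low counts in edgeR (0.68, 0.000682). Without WT 4, WT 5 and the covariate it was 0.25 (adjusted p = 0.319 by edgeR).

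**Figure D4:**
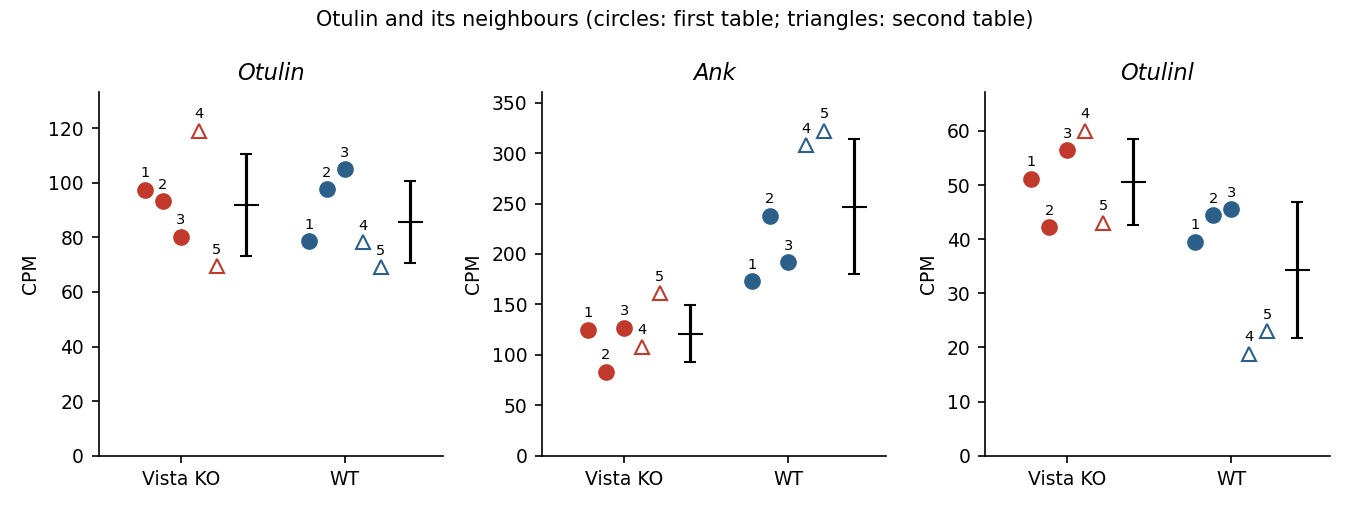
CPM of Otulin, Ank and Otulinl in each library, KO in red and WT in blue, numbered by library, with circles for the first table, triangles for the second and black bars for the mean and SD of 5. The KO values of Ank all lie under its WT values, where 7.22% of all rows had ranges that did not overlap, in either direction. WT 4 and WT 5 are lowest for Otulinl. For Otulin the genotypes overlap, and WT 5 and KO 5 are lowest, at 69.1 and 69.5 CPM, with WT 4 next at 78.2.

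The other genes of the route could be read only where names can be used. Of the 47 genes of the pathway list, from the sensors Nod1 and Nod2 to the linear-chain ligase subunits, the IKK complex and the NF-kB subunits, 24 had a tested row but only Ripk2, Map3k7 and Otulin lay in the windows. Of these 3, 0 rose and 0 fell. The levels of Nod2, Rnf31, Ikbkb, Nfkb1 and the rest were therefore not analysed here. Of the 16 target genes, 2 chemokine genes of lymphoid tissue lay in the windows, and neither was tested. Ccl19 had 40 counts over all libraries and Ccl21a, which has near-identical copies among which reads could be split, had 111, of which 68 came from 1 library.

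A further list of 6 genes held inputs and cofactors of TAK1 and NF-kB, 5 of them in the windows, chosen knowing that they lie there. By edgeR 0 of the 5 rose and 0 fell over the 10 libraries, against 5.63% of all rows called, and 2 had an unadjusted p under 0.05, against 23.3% of all rows. With DESeq2 1 of the 5, Lyn, passed, and with voom 0 did. Their median log2 fold change was 0.23, beside 0.019 for all rows and -0.019 for the rows tested inside the windows. The share of rows called was 6.06% in the first table (596 of 9829) and 0.856% in the second (85 of 9932). For the difference between the tables it was 2.05% (200 of 9736). By edgeR none of the 3 genes or the 5 was among them. DESeq2 called 1 of the 5 in the second table (adjusted p = 0.0433), where it called 439 of 9932 rows. It called 0 of the 5 in the first table and 0 for the difference between the tables.

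Ddx58, the gene of the RNA sensor RIG-I, which also signals to NF-kB, had 146 ± 27.9 CPM in KO and 118 ± 24.7 in WT (SD, n = 5), a log2 fold change of 0.32 with an adjusted p of 0.260 by edgeR. Tgfbr1, the TGF-beta receptor gene upstream of TAK1, had 167 ± 40.1 and 175 ± 10.5 CPM (-0.05, 0.809). Txn1, the gene of thioredoxin, which keeps NF-kB able to bind DNA, had 4214 ± 377 and 4443 ± 832 CPM (-0.03, 0.908). Casp8ap2, a histone mRNA processing gene also described in TNF signalling to NF-kB, had 77.6 ± 9.0 and 67.4 ± 5.09 CPM (0.23, 0.191).

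Lyn encodes a Src family kinase of B cells and myeloid cells and came nearest the threshold of the 5. It stood at 352, 334, 394, 465 and 253 CPM in KO libraries 1 to 5 and at 258, 318, 316, 186 and 161 in WT libraries 1 to 5. The 5 KO libraries were each above the WT mean of their table, and WT 4 and WT 5 were lowest. The log2 fold change was 0.61 ± 0.18 (SE; adjusted p = 0.0717 by edgeR and 0.0209 by DESeq2). It passed in edgeR without KO 4 (0.38, adjusted p = 0.038), without KO 5 (0.67, 0.0375) and with no filter on low counts (0.63, 6.35e-06). Without WT 4, WT 5 and the covariate it was 0.29 (0.339). Lyn had 0.31 in the first table (adjusted p = 0.0878 by edgeR) and 1.05 in the second (0.193). The difference between the tables was 0.74, with an adjusted p of 0.261 by edgeR.

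**Figure D5:**
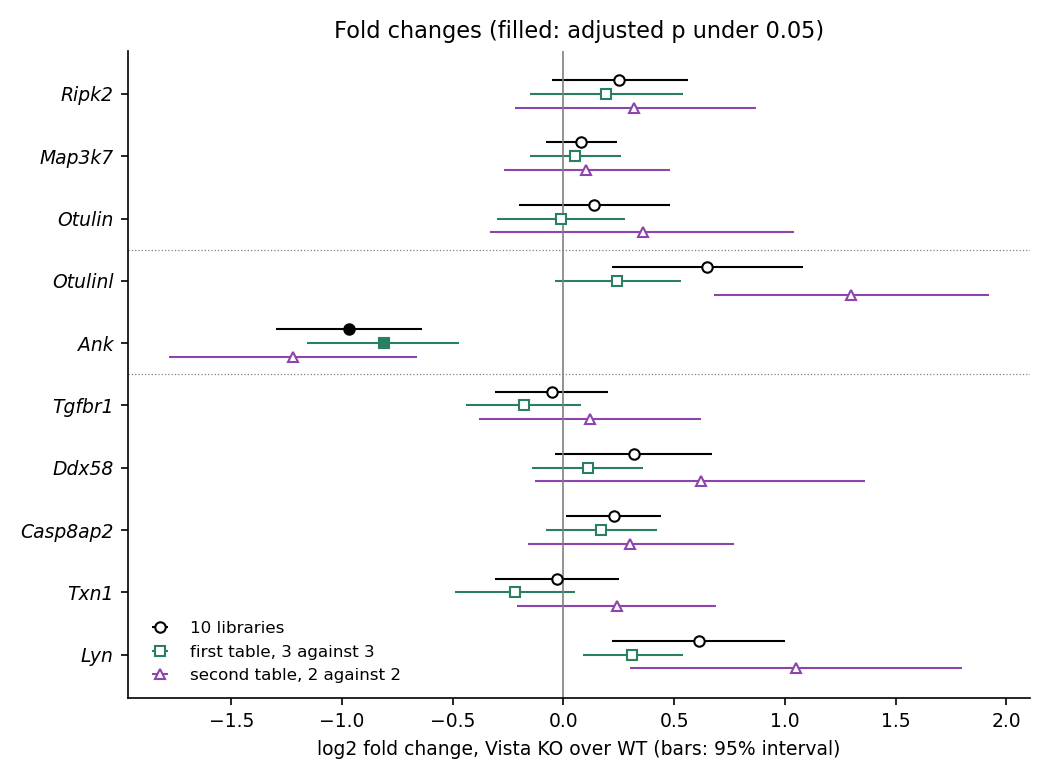
Log2 fold change of KO over WT with its 95% interval for the 3 genes (top), the neighbours Otulinl and Ank (middle) and the 5 inputs and cofactors (bottom), in all 10 libraries (circles), the first table (squares) and the second (triangles). Filled symbols passed an adjusted p of 0.05, which only Ank did, in all libraries and in the first table. The intervals of Ripk2, Map3k7 and Otulin include 0 in each comparison.

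Whole colon holds many cell types, and a change in how many cells of a type are present cannot be told apart from a change in RNA per cell. Of the markers of other cells listed, 3 of 6 B cell genes lie in the windows (Pax5, Cd72, Bach2), with a summed level of 118 to 252 CPM in KO and 25.2 to 291 in WT, lowest in WT 4 and WT 5. Pax5, Cd72 and Bach2 share 761, 1423 and 537 exon bases with other genes, so how their reads were split is uncertain. The same limit holds for other genes named here, among them Ccne2 (609 shared bases), Tox (260), Lyn (248), Penk (233) and Ank (65). The B cell genes went opposite ways in the tables. In the first, Pax5, Cd72 and Bach2 had log2 fold changes of -0.85, -0.70 and -0.77, of which Bach2 passed (adjusted p = 0.0301 by edgeR) and lost the call without KO 1 or 2 or WT 2 or 3 (-0.65 to -0.82). In the second they had 3.73, 2.37 and 2.33, of which Pax5 and Cd72 passed (0.0315 and 0.0406). Leaving out any 1 of its libraries ended those calls, with 3.28 to 4.35 for Pax5 and 1.99 to 2.67 for Cd72. The difference between the tables passed for all 3 (4.58, 3.08 and 3.10, adjusted p = 0.00377, 0.00566 and 0.00316 by edgeR), and Cd72 lost that call without WT 5 (2.96, 0.0544). The 1 of 6 myeloid genes there was Lyn itself. Of 7 epithelial genes 4 lie there (Cdh17, Grhl2, Esrp1, Klf4), with sums of 6740 to 7793 CPM in KO and 6407 to 8525 in WT. Cdh17 and Klf4 made up most of these sums. Esrp1 had 1078 to 1211 CPM in KO and 1232 to 1410 in WT, without overlap, as did 7.22% of all rows. Its log2 fold change was -0.19 (adjusted p = 0.191 by edgeR). The ranges of Cdh17, Grhl2 and Klf4 overlapped. The 1 goblet cell gene of 3, Spink4, had 689.5 to 2854 CPM in KO and 1347 to 3634 in WT, and the 1 smooth muscle gene of 4, Tpm2, had 488 to 1339 and 829 to 1323. Over all 10 libraries none of these B cell, myeloid, epithelial, goblet and smooth muscle genes passed by edgeR. Tox, the 1 of 4 T cell genes, had 48.1 to 63.0 CPM in KO and 62.8 to 112 in WT. Adamts12, the 1 of 5 fibroblast genes, had 2.95 to 8.39 and 10.3 to 16.4, and of 5 enteric neuron genes Penk and Calb1 summed to 38.1 to 104 and 121 to 200.2, with Calb1 at 0 in 5 of 10 libraries. Tox, Adamts12 and Penk fell by the same test, at adjusted p values of 0.0427, 0.0127 and 0.0308 by edgeR. Without WT 4, WT 5 and the covariate each lost the call, at -0.39 for Tox (adjusted p = 0.173 by edgeR), -0.98 for Adamts12 (0.0971) and -1.13 for Penk (0.0635), against -0.59, -1.14 and -1.02 with all libraries. Leaving out 1 library ended the call of Tox for KO 1 to 4 and for WT 2, 4 and 5 (-0.66 to -0.49, adjusted p = 0.0559 to 0.115 by edgeR), and that of Penk for KO 1 and for WT 1, 2 and 4 (-1.02 to -0.93, 0.067 to 0.0793). None of the 3 endothelial genes lies in the windows. The part of these cell types in the values of Ripk2, Map3k7 and Otulin was not tested.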

How the data were processed

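The authors deposited raw counts of reads for each Ensembl gene in 2 tables with the same 55416 rows, 3 libraries of each genotype in the first and 2 of each in the second. Per the submitters' processing notes, reads were aligned with HISAT2 (2.2.1 named for the first table) and counted with featureCounts 2.0.1. The notes name the build GRCh38, which is human, with the first table and mm10 with the second. Per the labels' protocols the second table came from single-end reads of 50 bases. The annotation is not given in the sources used here, nor is the strand setting. GENCODE M21 named 52083 rows, and 3333 unnamed rows stayed in totals and tests.

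Counts were tested on the whole table with edgeR 4.0.16 in R 4.3.3 (TMM scaling, expression filter, quasi-likelihood test, Benjamini-Hochberg adjustment, threshold 0.05), with the table as a covariate where both were used. Standard errors and 95% intervals were derived from the test statistic. CPM came from column totals, and log2 CPM used a pseudocount of 1. Alternatives were DESeq2 1.42.0, voom in limma 3.58.1, no filter, other scalings, no covariate, and leaving out libraries. The fitting code was tested on simulated data. The genes, gene lists, windows and tests were chosen with earlier results of these data known. Genes named were the 3 genes, the neighbours of Otulin, listed genes inside the windows (1 is not reported here), and the 3 genes most like each by correlation.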

Additional observations from a re-analysis of the deposited data

Results flagged for a closer look

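Tgfbr1 in WT library 1, at 156 CPM, lay apart from the other WT libraries, which had 176 to 183 CPM. Of 20 groups of 5 libraries examined in this way, 1 stood out, and about 1 in 20 would by chance, or 1.0 group. The difference between the second and the first table in the log2 fold change of KO over WT passed edgeR's test for the B cell genes Pax5 (4.58, adjusted p = 0.00377), Cd72 (3.08, 0.00566) and Bach2 (3.10, 0.00316). Each was lower in KO in the first table, where only Bach2 passed by edgeR (adjusted p = 0.0301), and higher in the second. WT 4 and WT 5 were the lowest libraries for all 3 genes, with Pax5 at 10.7 and 5.15 CPM. Pax5 stood at 61.2 to 148 CPM in WT 1 to 3 and at 55.4 to 130.1 in KO libraries.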

How the results depend on the processing

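No paired analysis was possible because KO and WT libraries carry no common replicate number. In the comparison of all libraries, Ripk2 and Map3k7 kept a positive sign and did not pass in any of 17 alternatives, with log2 fold changes of 0.15 to 0.33 and 0.04 to 0.10. Otulin did not pass either, but turned to -0.01 when WT 4, WT 5 and the covariate were left out, and ran from -0.04 (without KO 4) to 0.22 as single libraries were left out. Its difference of mean log2 CPM was -0.042 without WT 4 and WT 5 and ran from -0.005 (without KO 4) to 0.186. In the first table Otulin was 0.03 with no filter, 0.02 with scaling on window rows, and -0.10 to 0.10 as single libraries were left out. In the second table it ran from -0.08 to 0.68, where a genotype left with 1 library is assumed to vary like the other. The difference between tables ran from -0.12 to 0.35 for Ripk2, -0.03 to 0.13 for Map3k7 (-0.02 with no filter) and -0.06 to 0.70 for Otulin. With 1 library left out, Tgfbr1 ran from -0.18 to 0.01 and Txn1 from -0.13 to 0.06, and Txn1 was -0.22 without WT 4, WT 5 and the covariate. The counts of called rows moved more. With no filter, the pooled, first-table, second-table and interaction counts were 1260, 1322, 2 and 717. DESeq2 called 840 pooled rows, 439 in the second table and 343 for the interaction, and voom called 28 in the second table. A log2 fold change of at least 1 left 201 pooled rows, and omitting WT 4, WT 5 and the covariate left 78. Leaving out 1 library gave 223 (WT 4) to 1028 (KO 5) pooled calls, 158 to 456 in the first table, 0 to 5 by edgeR in the second (with 739 to 2423 rows at an unadjusted p under 0.05) and 57 to 483 for the interaction. The cause was not tested. On TMM-scaled CPM the exact permutation p was 0.119 for Ripk2, 0.0873 for Map3k7 and 0.389 for Otulin, lower than on column totals. As single libraries were left out, that of Ripk2 on column totals ran from 0.0794 (without KO 1) to 0.524 (without KO 3 or KO 4). That of Map3k7 ran from 0.254 (without KO 2) to 0.889 (without KO 4). The permutation alternatives were chosen after seeing the data. With 255 to 1214 counts per gene and library, depth gave a counting error of 3.07% to 5.54%.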
